A study of Drosophila melanogaster with 2 samples.

Results

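The genes examined here encode Polycomb repressive complex 2 (PRC2) and the Pho-repressive complex (PhoRC) of Drosophila melanogaster. They were listed by name: E(z), Su(z)12, esc and Caf1-55 for the PRC2 core, Pcl and Jarid2 for its accessory subunits, and pho, phol and Sfmbt for PhoRC. These 9 are among 13945 protein-coding genes annotated on the 6 chromosome arms. A gene was given every summit that lay within its body or up to 2 kb upstream of its outermost start. The protein mapped was Psq (pipsqueak), a DNA-binding protein of the BTB family, in whole embryos of 0 to 24 hours, both sexes pooled, from a transgenic line that stably expresses Psq fused to GFP at its C terminus. It was precipitated through the GFP tag. There were 2 biological replicates, numbered 3 and 4, in 1 group, with no second condition. Whole embryos mix all cell types, so occupancy in a few cells and weak occupancy in many cannot be told apart.

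PRC2 methylates a lysine in the tail of histone H3, and this mark is found over silenced developmental genes such as the Hox genes. E(z) is the catalytic subunit. Pho, a sequence-specific DNA-binding protein, and its partner Sfmbt form PhoRC, which sits at Polycomb response elements and helps to anchor PRC2 and PRC1 there. Psq recognises GA-rich repeats, which such elements often contain. The values below concern Psq at the genes that encode these complexes and not at the targets they silence.

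Psq-GFP was found at the promoters of most of these genes. In the list that passed the authors' test of the irreproducible discovery rate (IDR), 6 of the 9 windows held a summit: those of E(z), Su(z)12, Pcl, Jarid2, phol and Sfmbt. The same rule was met by 20.3% of all protein-coding genes. The 9 genes were chosen with earlier results of these data known. Sfmbt had 2 summits and the others 1 each, 7 in all. The esc, Caf1-55 and pho windows held none. Within 1000 bp of their own transcription start site (TSS), 5 of the 9 had an IDR summit, against 16.2% of protein-coding genes. The sixth, phol, met the window rule only through a summit 1528 bp upstream of its TSS.

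**Figure D1:**
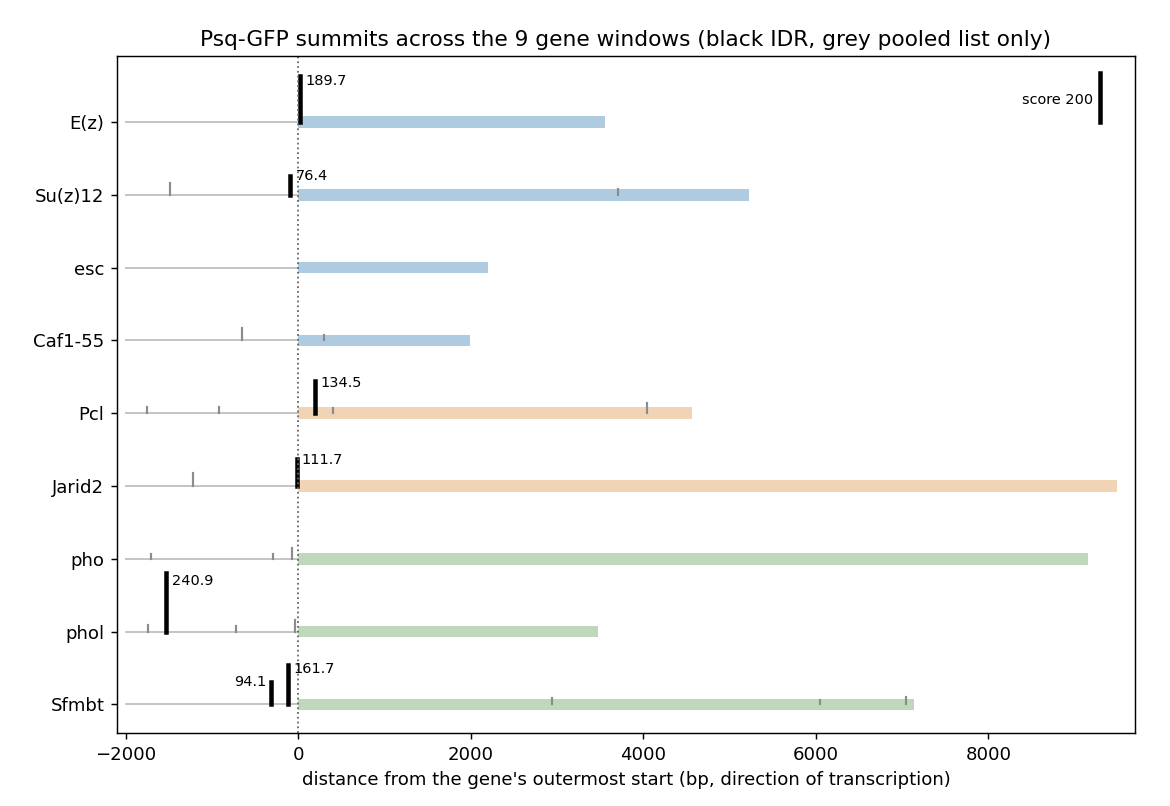
Each row is 1 gene drawn to scale from its outermost start (0 bp), with the 2 kb upstream as a thin line and the gene body as a bar. Vertical lines are summits with a height proportional to the authors' score, black for IDR peaks (score printed) and grey for peaks of the pooled list that missed the IDR threshold. The black lines stand close to the start in E(z), Su(z)12, Pcl, Jarid2 and Sfmbt, and at 1528 bp upstream in phol.

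The score is the statistic of the authors' peak caller and ranks peaks within 1 list. The 2999 IDR peaks ran from 72.5 to 2011.2, with a median of 108.4. The 7 summits of these genes ran from 76.4 to 240.9, with a median of 134.5. The strongest summit of 5 of the 6 genes ranked above the middle of the IDR list, and that of Su(z)12 below it. Of the 5, Jarid2 was closest to the middle, at rank 1417, and ranked 1872 and 1799 in replicates 3 and 4. Set against genes instead of peaks, 396 protein-coding genes (2.84%) had a window summit scored at least as high as that of phol. The share was 4.71% for E(z), 6.18% for Sfmbt, 8.34% for Pcl, 11.2% for Jarid2 and 19.0% for Su(z)12.

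E(z) (FBgn0000629, 3L 10634575 to 10638130, minus strand), the histone methyltransferase of PRC2, had the highest score of the core subunits. Its peak lay on 3L from 10638022 to 10638135 with a score of 189.7, rank 535 of 2999. In the pooled list it was narrow, 114 bp, where the median IDR peak was 440 bp. The replicate peaks were wider, from 10637889 to 10638328 in replicate 3 and from 10637852 to 10638295 in replicate 4. The pooled summit was 24 bp downstream of the E(z) TSS, in the 5' UTR. Replicate 3 scored the peak 97.4 (rank 438) and replicate 4 scored it 94.1 (rank 634), with summits 3 and 32 bp from the pooled one. Both replicates thus placed it in the strong end of their 30000 peaks. The divergent gene Cnep1r2, which by its name encodes a regulatory subunit of a nuclear envelope phosphatase, starts 16 bp from the E(z) TSS, and its TSS was 40 bp from the summit.

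Su(z)12 (FBgn0020887, 3L 19918242 to 19923462, minus strand), which PRC2 needs for its activity, was the weakest of the 6. Its peak on 3L from 19923334 to 19923773 scored 76.4, rank 2744, close to the lowest IDR score of 72.5. The summit was 92 bp upstream of the Su(z)12 TSS and 117 bp from that of the divergent prefoldin gene Pfdn6. Replicate 3 scored it 36.3 (rank 2937) and replicate 4 scored it 51.0 (rank 1980). The strongest overlapping summit of replicate 3 lay 171 bp away from the pooled summit and that of replicate 4 lay 10 bp away. Replicate 3 also had a weaker summit 31 bp from the pooled one, with a score of 13.8 and rank 15974.

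The other core genes had no IDR summit. The esc gene (FBgn0000588, 2L 11827204 to 11829405), whose WD40-repeat protein binds the methylated histone tail, was the only one of the 9 with no summit in any of the 4 lists. Its nearest summits were 5590 bp from the TSS in the pooled list, 5639 bp in replicate 3 and 2780 bp in replicate 4, and they ranked 8125, 6908 and 24203 in those lists. The nearest IDR summit was 12839 bp away, by CycY. Caf1-55 (FBgn0263979, 3R 15225576 to 15227564), a histone-binding subunit that other chromatin complexes share, had 2 summits of the pooled list alone. The stronger scored 50.5 (rank 5241), 652 bp upstream of its TSS inside the coding sequence of CG31344. It ranked 8918 in replicate 3 and 5384 in replicate 4, outside the 2999 strongest of both. At 1967 bp beyond the 3' end of Caf1-55 stood a much stronger IDR peak, with a score of 610.7 and rank 40 (3R, 15229355 to 15229699). That summit was 123 bp upstream of Art3, an arginine methyltransferase gene, and ranked 31 and 64 in replicates 3 and 4.

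**Figure D2:**
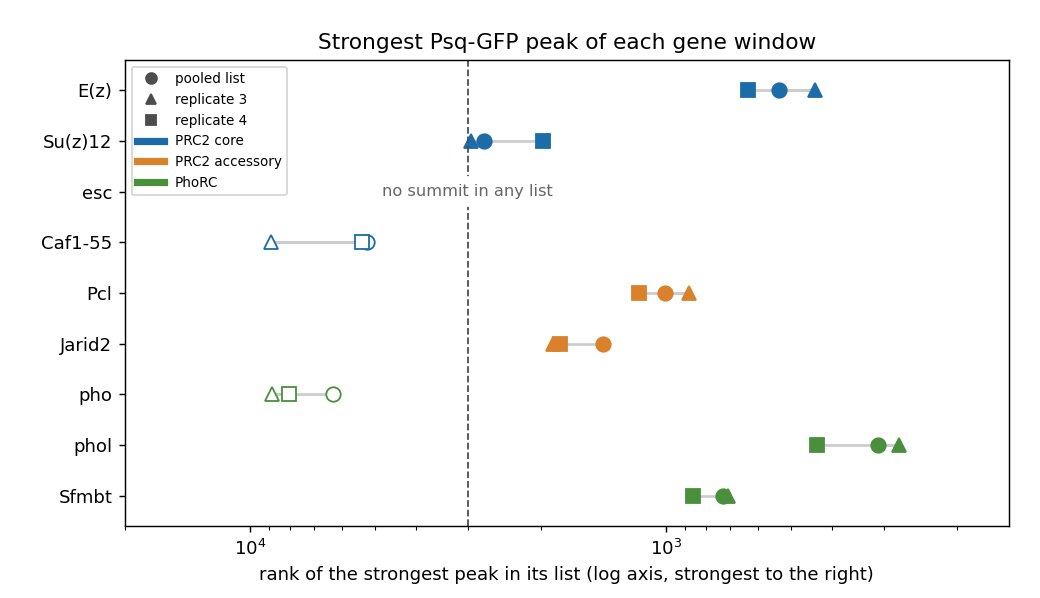
For the strongest peak in each gene window, the rank in the pooled list (circle), replicate 3 (triangle) and replicate 4 (square) is shown on a log axis, with stronger peaks to the right. Filled symbols are IDR peaks, open symbols peaks below the threshold, and the dashed line marks rank 2999. The filled symbols of 6 genes lie right of the line in all 3 lists, that of Su(z)12 in replicate 3 (rank 2937) almost on it, the open ones of Caf1-55 and pho lie left of it, and esc has none.

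Both accessory subunit genes were occupied at the start of the gene. Pcl (FBgn0003044, 2R 18135426 to 18139990, plus strand) encodes Polycomblike, a Tudor and PHD finger protein that helps PRC2 methylate its targets fully. Its peak on 2R from 18135401 to 18135840 scored 134.5 (rank 1008), with the summit 195 bp downstream of the TSS in the 5' UTR. Replicate 3 ranked it 879 (score 69.9) and replicate 4 ranked it 1160 (score 68.1). The heat shock factor gene Hsf starts 792 bp away on the opposite strand, and its TSS was 987 bp from the summit. Further pooled summits lay in the Pcl window, of which the strongest scored 42.2 (rank 6912) in the 3' UTR. The window had 5 pooled summits in all, as had that of Sfmbt.

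Jarid2 (FBgn0036004, 3L 9477038 to 9486530, plus strand) encodes a PRC2 subunit with DNA-binding and JmjC-type domains. Its peak on 3L from 9476799 to 9477238 scored 111.7 (rank 1417), near the middle of the IDR list. The summit lay 19 bp upstream of the TSS, between Jarid2 and the divergent gene Uch-L5, a deubiquitinase gene that starts 73 bp away. Replicate 3 scored the peak 46.9 (rank 1872) and replicate 4 scored it 54.0 (rank 1799), with summits 2 and 6 bp from the pooled one. A weaker pooled peak, with a score of 54.9 and rank 4646, lay 1221 bp upstream in the coding sequence of Uch-L5.

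The PhoRC genes differed among themselves. Sfmbt (FBgn0032475, 2L 13169649 to 13176785, minus strand) encodes the MBT-repeat protein that binds Pho. It had a peak of score 161.7 (rank 729) on 2L from 13176678 to 13177117, 113 bp upstream of its TSS, and another of score 94.1 (rank 1935) from 13176878 to 13177317, 313 bp upstream. Their summits were 200 bp apart and the intervals overlap. Replicate 3 ranked the first 708 (score 77.9) and replicate 4 ranked it 861 (score 80.0). Each replicate also had its own summit near the other one, 24 bp away with rank 1406 in replicate 3 and 5 bp away with rank 2260 in replicate 4. The divergent gene CG5439 starts 365 bp from Sfmbt, and the weaker summit was 52 bp from its TSS and so nearer to it than to Sfmbt. The start of CG43925 lay inside Sfmbt, 475 bp from the stronger summit.

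The window of phol (FBgn0035997, 3L 9452803 to 9456281, minus strand) held the highest score of the 9, 240.9 (rank 309), on 3L from 9457707 to 9457919. Phol is a close relative of Pho with overlapping function. Replicate 3 scored the peak 123.9 (rank 276) and replicate 4 scored it 113.1 (rank 433), with summits 1 and 2 bp from the pooled one. The summit lay in an intron of CG3552, 103 bp from the nearest CG3552 TSS and 140 bp from that of CG3437, and 1528 bp from phol. At the phol promoter itself, 32 bp upstream of the TSS and 5 bp from another CG3552 start, the pooled list held a peak of score 49.0 (rank 5496), which was below the IDR threshold. That peak ranked 11792 in replicate 3 and 4209 in replicate 4. By distance, the IDR peak lay nearer to the starts of both neighbours than to that of phol. In the strength of the best peak over both replicates, the genes most like phol were CG3437 and CG3552, which share its peak, and then CG17260, Rme-8 and SerRS, which tied at a summed rank difference of 31.

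The pho gene (FBgn0002521, chromosome 4, 1172469 to 1181628) had 3 pooled summits and no IDR summit. The strongest scored 44.7 (rank 6333) and lay 73 bp upstream of the pho TSS. It was found in replicate 3 at 4 bp from the pooled summit (score 18.9, rank 8838) and in replicate 4 at 5 bp (score 22.8, rank 8048). The position was repeated but the strength was outside the 2999 strongest peaks of either replicate. The nearest IDR summit was 68273 bp away, by Cals, with a score of 197.6.

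**Figure D3:**
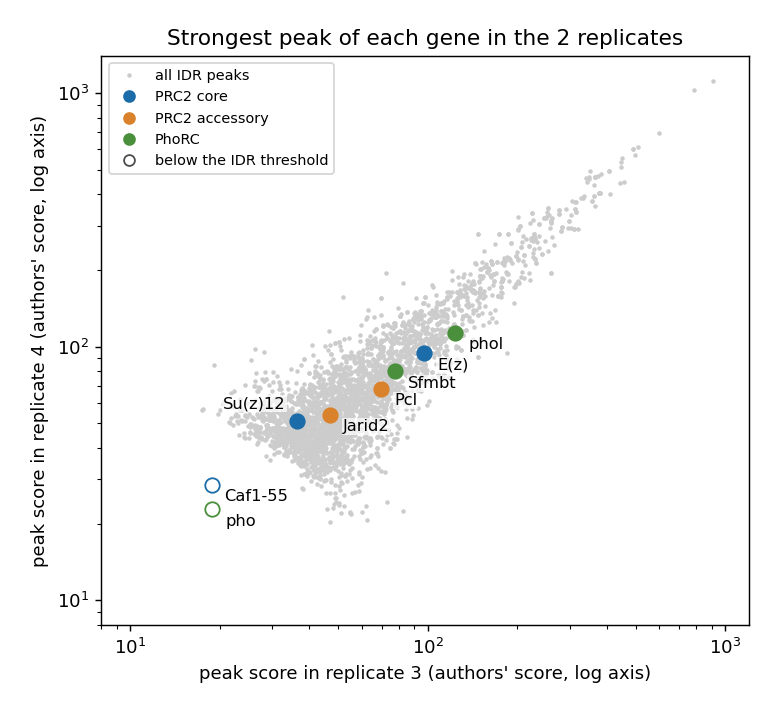
The score of each gene's strongest peak in replicate 3 (horizontal) and replicate 4 (vertical) is plotted on log axes over all IDR peaks found in both replicates (grey dots). Colours give the complex, and open circles are peaks below the IDR threshold. From Su(z)12 (36.3 and 51.0) to phol (123.9 and 113.1) the 6 genes lie within the grey cloud, and pho and Caf1-55 lie at its lower left edge.

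The replicates repeated the peaks of these genes. All 7 IDR peaks were overlapped by a peak in both replicates' lists, as were 99.8% of all IDR peaks. All 7 were also overlapped by the 2999 strongest peaks of each replicate, where 75.7% of all IDR peaks were. Both Sfmbt peaks shared 1 strongest overlapping peak in each replicate. The median distance from the pooled summit to that of the strongest overlapping peak was 26 bp in replicate 3 and 10 bp in replicate 4. IDR peaks were chosen by the authors from the same replicates, so this overlap is partly built in.

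Every one of the 7 summits had the TSSs of at least 2 protein-coding genes within 1000 bp. Of the 1897 IDR summits with any protein-coding TSS that close, 40.4% had at least 2 such genes. This feature was chosen after its values were seen. At E(z), Su(z)12, Jarid2, Pcl and Sfmbt a neighbour is transcribed away from the member, from a start 16 to 792 bp away. For Sfmbt this is CG5439, while CG43925 starts inside Sfmbt. In the phol window CG3552 is divergent as well. Its start nearest the IDR summit is 1631 bp from the phol TSS, and another CG3552 start lies at the phol promoter. Which of the neighbouring genes a summit belongs to cannot be told from these data. Counting a summit only for the protein-coding gene with the nearest TSS kept E(z), Su(z)12, Pcl, Jarid2 and Sfmbt, 5 of 9, and dropped phol. By that rule 13.3% of protein-coding genes had a summit.

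The sequences at 4 of the summits are shown because Psq is known for GA repeats and Pho for the core GCCAT. The stretch named phol surrounds the IDR summit of its window, near starts of CG3552 and CG3437. It is not the phol promoter, as that summit was 1528 bp from the phol TSS. They are RefSeq dm6 sequence within 100 bp of a summit and outside annotated exons, given 5′ to 3′ on the strand of the named gene. Capitals mark GAGAG or GCCAT in either orientation. The stretches are chr3L:19923463-19923654 (minus strand) for Su(z)12, chr3L:9476966-9477037 (plus) for Jarid2, chr3L:9457709-9457909 (minus) for phol and chr2L:13176889-13176998 (minus) for the stronger Sfmbt summit. The E(z) summit window is mostly exonic, so its GAGAG site alone is given, chr3L:10638144-10638168 (minus), which lies in the 5' UTR of Cnep1r2.
Su(z)12: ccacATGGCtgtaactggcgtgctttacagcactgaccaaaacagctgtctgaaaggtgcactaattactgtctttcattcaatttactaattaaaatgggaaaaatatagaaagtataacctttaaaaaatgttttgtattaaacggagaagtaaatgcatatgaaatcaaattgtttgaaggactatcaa
Jarid2: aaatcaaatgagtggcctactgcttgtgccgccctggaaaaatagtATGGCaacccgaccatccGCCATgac
phol: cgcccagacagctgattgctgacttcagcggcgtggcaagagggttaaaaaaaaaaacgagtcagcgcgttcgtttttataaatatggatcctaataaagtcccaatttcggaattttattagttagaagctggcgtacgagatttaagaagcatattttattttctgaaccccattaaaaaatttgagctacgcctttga
Sfmbt: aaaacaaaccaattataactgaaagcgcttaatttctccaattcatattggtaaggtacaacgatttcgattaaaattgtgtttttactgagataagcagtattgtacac
E(z): ttccacgtttGAGAGcactgataac

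The share of these summits with GAGAG was near that of all IDR summits within 100 bp and lower within 250 bp, with no test made on 7 summits. GAGAG, searched on both strands (as CTCTC on the other) within 100 bp, occurred at 2 of the 7 summits (28.6%), those of E(z), 50 bp away, and Pcl, 72 bp away. It occurred at 33.1% of all IDR summits, in 23.7% of windows of the same length 1000 bp to either side of them, and around 24.9% of 19607 protein-coding TSSs. Only matches wholly inside the window counted, and the E(z) match, centred 50 bp away, ran past a 50 bp limit. Within 50 bp GAGAG was thus at 0 of 7, beside 17.0% of all IDR summits. Within 250 bp it was still at 2 of 7, beside 61.5% of all IDR summits and 48.1% of the windows to either side. The longer GAGAGAG, each match of which also holds GAGAG, occurred at 0 of 7 and at 9.64% of IDR summits, against 4.67% of TSS windows. The phol summit, the strongest, had neither, and its longest run of alternating G and A was 4 bases. The median longest run was 4 bases at all IDR summits as well.

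GCCAT, which matches the core of the Pho site, occurred within 100 bp of 2 of the 7 summits, where 25.4% of all IDR summits and 30.8% of TSS windows had it. Jarid2 had 2 matches in opposite orientation, centred 5 and 13 bp from the summit. Su(z)12 had 1 at 94 bp. Within 50 bp, 1 of the 7 summits had GCCAT, beside 13.4% of all IDR summits. Within 250 bp, 6 of the 7 had it, beside 56.0% of all IDR summits and 62.8% of the windows to either side. At that width the windows of the 2 Sfmbt summits overlap, so they are not separate. A match is a description of the letters and says nothing of Pho binding. The median GC content of the 7 windows was 36.3%, and that of all IDR windows 37.8%.

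Below the IDR threshold the relaxed list of pooled peaks held 18 further summits in these windows, 25 in all. Under that list 8 of 9 genes had a summit, against 68.5% of protein-coding genes, a share that includes background. The median gene here had 3 pooled summits and the median protein-coding gene 1. The highest scores under the threshold were 54.9 in the Jarid2 window and 50.5 in that of Caf1-55, and the lowest inside it was the 76.4 of Su(z)12. The Su(z)12 window held one of 46.7 (rank 5916), whose summit was 4 bp from the start of Grasp65, a Golgi protein gene.

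Gene length bears on such counts. The median window was 6565 bp for the 9 genes and 4166 bp for all protein-coding genes. With protein-coding genes in 3 bands of nearly equal number by window length, an IDR summit was found for 10.2% of the short, 17.7% of the middle and 33.1% of the long band. Of the 6 members in the long band, from 5533 bp up, 5 had an IDR summit, and of the 3 in the middle band (esc, Caf1-55 and phol) 1 had. No member was in the short band. The long band runs to windows of 1967857 bp, so it is a loose comparison for members' windows of 5556 to 11493 bp. Outside the window but within 5 kb of the gene body, a distance chosen after seeing the data, 4 of the 9 had an IDR summit, against 21.5% of protein-coding genes. With no sequence upstream of the gene, only E(z) and Pcl held a summit, 2 of 9, against 8.5% of protein-coding genes.

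Other Polycomb genes are given for comparison, from lists chosen by function with earlier results of these data known. The counts stand beside 20.3% of all protein-coding genes with an IDR summit in the window, and 33.1% of the long band. Of 11 genes listed with PRC1 and the Polycomb deubiquitinase, including caly (listed as calypso), 6 had an IDR summit by the same rule. The strongest were ph-p with 491.6, Psc with 326.6 and Kdm2 with 208.4. That list is not limited to subunits of these complexes and also holds sxc, which had no IDR summit. Of 6 genes for DNA-binding recruiters 4 had one, led by psq itself with 1808.9, Trl with 517.9 and grh with 267.6. Of 4 further PRC2-associated genes 1 had one, jing, with 340.1 in a gene of 119.8 kb, while escl, the close relative of esc, and Scm and corto had none. Among Utx, ash1 and trx, whose products act against PRC2, trx had one (310.7). The highest score in the PRC2 and PhoRC windows, 240.9, was below those of ph-p, Psc, psq, Trl, grh, jing and trx. That peak, in the phol window, lay nearer to the starts of CG3552 and CG3437. The highest with its summit nearest the member's own TSS, 189.7 at E(z), was below that of Kdm2 as well. The comparison genes were not held to that rule, and neither Kdm2 nor grh had an IDR summit within 1000 bp of its own TSS. Those genes from ph-p to trx are 12.2 to 119.8 kb long and Kdm2 is 10.8 kb. The longest member is 9.49 kb, so the windows of the comparison genes named had more room for summits. No test of a difference between these lists was made.

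**Figure D4:**
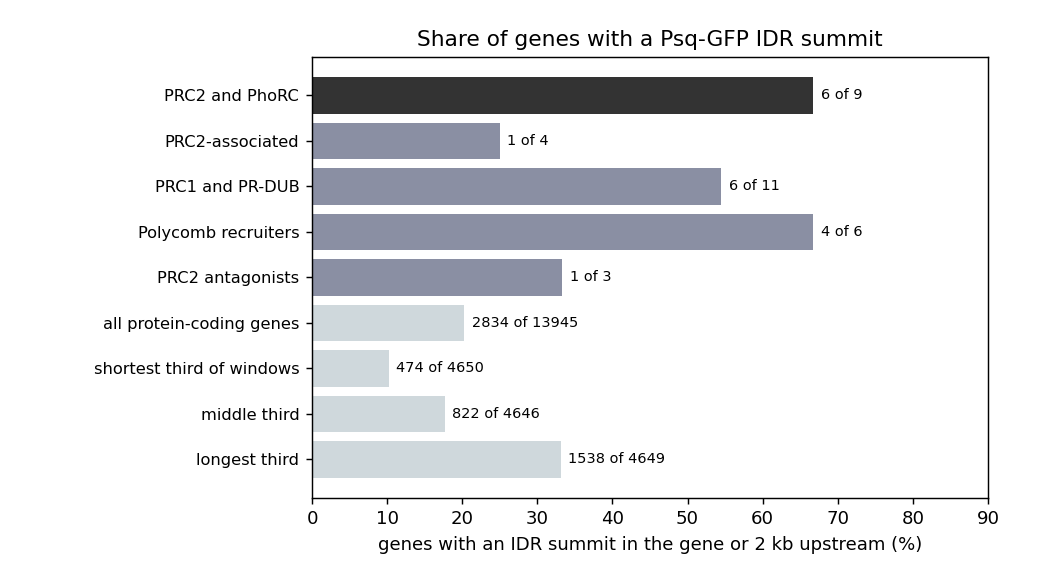
Bars give the percentage of genes with an IDR summit in the gene or 2 kb upstream, with the counts beside them. The dark bar is the 9 PRC2 and PhoRC genes, the mid-grey bars the other Polycomb lists, and the light bars all protein-coding genes and the 3 bands of them by window length. The dark bar stands at 66.7% and all protein-coding genes at 20.3%, and the other Polycomb lists between 1 of 4 and 4 of 6 genes.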

How the data were processed

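Psq-GFP chromatin immunoprecipitation sequencing was done on whole embryos, with sonication to fragments of 200 to 800 bp. According to the deposited text files, the authors made a relaxed peak list, background included, for each replicate against a control alignment and for the pooled replicates. The IDR list was derived from these 3. The peak caller, the aligner and the IDR threshold were not given in the sources used here. In each list the deposited score is a statistic of the peak caller on a scale of that list. The deposited −log10 q is capped per list (3.87 pooled, 3.81 replicate 3, 3.66 replicate 4), and all 7 members' IDR peaks were at the cap, so peaks were ranked by score. The files hold no read numbers, so depth is unknown and no precision follows from it.

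Summits came from the deposited offset. Coordinates are dm6, 1-based. Gene models were Ensembl release 115 without transposable elements, and sequence was RefSeq dm6, the same assembly. A replicate peak matched when it overlapped by at least 1 bp, and the strongest was taken. Window counts were tested on simulated summits. The analysis used Python 3.11.15 and pandas 2.3.3. With 1 group, no test was made. Counts were read against all protein-coding genes. The dm3 lists were not used here. The named genes were the 9 members, the genes with TSSs next to their summits, up to 3 of each comparison list with the highest scores, and those closest to phol in replicate ranks. Other genes near summits outside the windows, or without a summit in a list, were named after their values were seen. The members and lists were chosen with earlier results of these data known. Alternatives were other windows, thresholds, overlaps, motifs and each replicate alone.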

Additional observations from a re-analysis of the deposited data

How the results depend on the processing

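The count of 6 genes with an IDR summit stayed within 5 to 8 for upstream windows of 1 and 5 kb, the upper 50% of peaks by score, the pooled list, nearest TSS only and either replicate alone, and was 2 (E(z) and Pcl) with no upstream sequence. Su(z)12 was lost among the upper 50% and phol with 1 kb. The summit count, 7, was 2 with no upstream sequence, 5 to 8 under the other windows, thresholds and replicates, and 25 in the pooled list, which holds 30000 peaks. The same 6 genes had a summit among the 2999 strongest peaks of replicate 3 alone and of replicate 4 alone. The share of all protein-coding genes, 20.3%, was 8.5% with no upstream sequence, 18.3% with 1 kb, 26.3% with 5 kb, 11.7% with the upper 50% of peaks by score, 13.3% when only the nearest TSS counted and 68.5% in the pooled list, all by construction of the rule, and 19.9% with either replicate alone. The median rank of the strongest peak, 868.5 in the pooled list, ran from 793.5 to 1010.5 over the replicates. GAGAG was at 0 of 7 summits wholly within 50 bp (17.0% of all IDR summits) and at 2 within 250 bp (61.5%), and GAGAGAG at 0 within 100 bp (9.64%). Replicate overlap was 6 of 7 with a reciprocal overlap of 50%, and no share of all IDR peaks is given for that rule. The E(z) peak, 114 bp wide, did not meet it because it lay inside much wider peaks of both replicates. No paired analysis was possible because there is 1 group. Depth is unknown, 2 replicates allow no test between them, and a share over 9 genes moves by over 10 percentage points with 1 gene.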

Other observations

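Strong Psq-GFP peaks stood just outside some of the gene windows. Within 5 kb of the gene bodies, 4 of the 9 genes had an IDR summit that the window rule leaves out, a distance chosen after seeing the data. By the same rule 21.5% of protein-coding genes had one. The strongest was 3779 bp beyond the 3' end of Sfmbt, with a score of 862.3, rank 13 of 2999, at 202 bp downstream of a TSS of DnaJ-H, a chaperone gene. It ranked 14 in replicate 3 and 12 in replicate 4. The Art3 peak beyond Caf1-55 ranked 40. The other two were 1319 bp beyond Pcl at pAbp, the poly(A)-binding protein gene, with a score of 151.3, and 4672 bp upstream of phol at CG44838, with a score of 163.2. All 4 summits were within 202 bp of the TSS of the other gene.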
